A study of Drosophila melanogaster with 6 samples.

Results

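Small nucleolar RNA (snoRNA) genes were examined in RNA-seq of whole male *Drosophila* pharate adults, the stage at which the adult body is formed but still inside the pupal case. The members were the genes whose symbol begins with snoRNA and whose RPKM (reads divided by the length of the gene and by the library's counted reads) averaged at least 1 over the 6 libraries, which left 146 of the 282 snoRNA genes listed among 15115 genes. The study replaced lysine 27 of the replication-independent histone H3.3 with arginine, a residue that can be neither acetylated nor methylated there, by CRISPR editing of the endogenous genes. The tested males were double H3.3 K27R (genotype yw, H3.3B K27R; H3.3A K27R / H3.3A K27R), in which the X-linked H3.3B and both copies of H3.3A on the second chromosome are edited, and H3.3B K27R (yw, H3.3B K27R), in which H3.3A is intact. They were set against wild type males (yw), and yw is part of the name of all 3 genotypes. The paper made the H3.3B and H3.3A edits in different Cas9 strains. Other differences between strains, on any chromosome, cannot be told apart from the edits. Each genotype had 2 libraries, each from pooled males collected 96 to 108 hours after puparium formation. H3.3A and 57 of the members placed by the annotation lie on the second chromosome, so that the edit and the rest of that chromosome in double H3.3 K27R males cannot be told apart.

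snoRNAs guide the chemical modification of other RNAs inside protein complexes of the nucleolus. H/ACA snoRNAs direct the conversion of uridine to pseudouridine, and box C/D snoRNAs direct methylation of the ribose, most often on 18S and 28S ribosomal RNA. In flies nearly all are cut out of introns of host genes, many of which encode ribosomal proteins or are non-coding hosts of the Uhg family. The names used here carry the modification and the target, so that Psi names were taken as H/ACA, Me names as C/D, and the rest were kept apart as other names.

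Of 109 Psi genes 85 were members, as were 32 of 101 Me genes and 29 of 72 genes with other names. No read was found in any library for 115 snoRNA genes (13 Psi, 60 Me and 42 others), and each of the other 21 genes left out had 1 read in all. The limit of 1 RPKM is therefore close to a limit of 1 read, with *snoRNA:Me18S-G894* just inside it at 1 RPKM and *snoRNA:Me28S-G2743* just outside at 0.996 RPKM. Of the members, 131 were matched to the BDGP6 annotation, 7 of them through an older symbol. The annotation placed 125 members within an intron of a host gene on the same strand, none over an exon, and 6 outside any host. They came from 54 host genes, of which 17 ribosomal protein genes held 42 members, and Uhg genes held 7. By chromosome arm there were 40 members on 2R, 30 on 3R, 25 on 3L, 19 on X and 17 on 2L.

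Few reads lie behind most of these values. The double H3.3 K27R libraries had 1673661 and 1535941 reads on genes, the H3.3B K27R libraries 1915687 and 1602741, and the wild type libraries 1591441 and 2118264. The 146 members held 10095 reads over all 6 libraries, and *snoRNA:Psi18S-1820* alone held 24.6% of them. Only 19 members averaged at least 10 reads a library, 81 never had more than 3 reads in any library, and 37 had 1 or 2 reads in total. With a median length of 140 bases for Psi members and 88 bases for Me members, a single read is worth several RPKM, between 3.37 and 4.65 RPKM on 140 bases over the 6 libraries. The read numbers are given beside the values throughout. Reads of a mature snoRNA and of the host intron before splicing cannot be told apart in these values.

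The H/ACA class carried most of the signal. Psi members had 7276 reads, with a median of 8 reads a gene over all libraries, against 1068 reads and a median of 2.5 for Me members. The members with other names had 1751 reads and a median of 9. Of the 19 members with at least 10 reads a library, 12 had Psi names, 6 had other names and 1 had an Me name. That one, *snoRNA:MeU5-C46* in an intron of *CG1142*, is 316 bases long, is named for a site on the U5 spliceosomal RNA, and is listed by the annotation as a small Cajal body RNA, a guide for spliceosomal rather than ribosomal RNA. It held 884 of the 1068 Me reads, and the other 31 Me members together held 184 reads, fewer than each of 7 single Psi genes. In all, the annotation lists 6 members as small Cajal body RNAs, with *snoRNA:dmt-a* and *snoRNA:bur-a* among them.

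Genes with a lettered copy name were listed at 0 more often among Me than among Psi genes. Of 39 Me genes with a lettered copy name, 74.4% had no read in any library, as did 50% of the 62 Me genes with a single name. Among Psi genes the shares were 13.5% of 74 lettered and 8.57% of 35 single names. The 3 genes of U3, the C/D RNA that helps to cleave the ribosomal precursor, and the 2 genes of U14 were listed at 0 in all 6 libraries. How reads that map to several copies were counted is not given in the sources used here, and its part in these values was not tested.

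The most abundant member was *snoRNA:Psi18S-1820*, which lies in an intron of *Nop60B*, the gene of the pseudouridine synthase of the H/ACA particle itself. It had 1882 and 2316 RPKM in double H3.3 K27R, 1697 and 1390 RPKM in H3.3B K27R, and 1535 and 1477 RPKM in wild type libraries, and by mean RPKM it ranked 35 among the 11304 genes tested. Its host mRNA was far less abundant per length, at 2.80 and 3.63 RPKM in double H3.3 K27R, 3.37 and 5.12 RPKM in H3.3B K27R, and 3.87 and 2.21 RPKM in wild type libraries. Next came *snoRNA:Psi18S-1377d* in the ribosomal protein gene *RpS7*, with 940.2 and 1551 RPKM in double H3.3 K27R, 913.5 and 848.7 RPKM in H3.3B K27R, and 757.7 and 899 RPKM in wild type libraries. The *RpS7* introns hold 5 copies of this guide, and all reads of the other copies together were fewer than those of the d copy in every library. Between these 2 genes the levels did not overlap in any genotype.

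The third in order was *snoRNA:Or-aca5*, an orphan H/ACA RNA without an assigned target in the non-coding host *Uhg4*. It had 448.1 and 818.2 RPKM in double H3.3 K27R, 430.3 and 375.2 RPKM in H3.3B K27R, and 441.6 and 433.8 RPKM in wild type libraries. *snoRNA:Psi28S-2622*, *snoRNA:Psi18S-996*, *snoRNA:Psi18S-176* and *snoRNA:MeU5-C46* followed, and their wild type means were 298.7 ± 16.2, 315.5 ± 12.9, 303.2 ± 38.6 and 266.9 ± 33.1 RPKM (SD, n = 2 each). The wild type libraries of these 4 genes overlapped in every pair except *snoRNA:Psi18S-996* and *snoRNA:MeU5-C46*, and all lay below those of *snoRNA:Or-aca5*. *snoRNA:Psi18S-996* shares its host, *Tudor-SN*, with a gene described below, while *snoRNA:Psi28S-2622* and *snoRNA:Psi18S-176* have no annotated host. Levels of the 19 members with at least 10 reads are given in the plot of RPKM by gene and library.

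**Figure D1:**
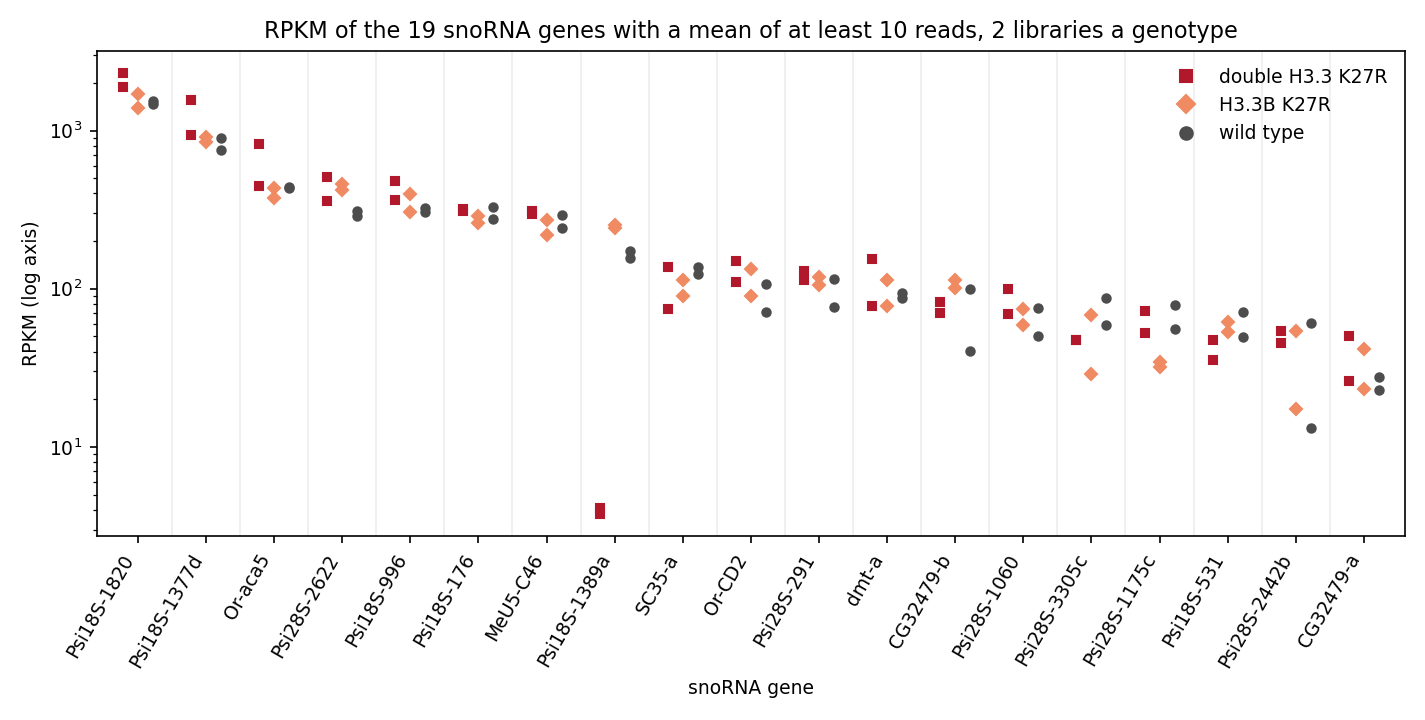
RPKM (y, log axis) of the 19 snoRNA genes with a mean of at least 10 reads (x), with 1 point for each of the 2 libraries of double H3.3 K27R, H3.3B K27R and wild type males. Both double H3.3 K27R points of *snoRNA:Psi18S-1389a* lie near 4 RPKM, far below the H3.3B K27R and wild type points of the same gene, and no other gene shows such a gap.

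Among the most abundant Me genes after *snoRNA:MeU5-C46*, *snoRNA:Me18S-C1831* in *RpL27A* had 6 and 8 reads in double H3.3 K27R, 4 and 3 reads in H3.3B K27R, and 5 and 7 reads in wild type libraries. *snoRNA:Me28S-A1322*, in the translation elongation factor gene *eEF1alpha1*, had 5 and 4 reads in double H3.3 K27R, 11 and 5 reads in H3.3B K27R, and 2 and 3 reads in wild type libraries. Neither gene passed the test in any comparison. The remaining Me genes named by level, *snoRNA:Me18S-C1096* and *snoRNA:Me28S-G2017*, both lie in *RpL3* and had between 1 and 7 reads in every library.

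The comparison of double H3.3 K27R with wild type males asks how expression differs when all H3.3 carries arginine at position 27. One H/ACA gene, *snoRNA:Psi18S-1389a*, was nearly absent from double H3.3 K27R males, and *snoRNA:Tudor-SN-a*, a gene without an assigned class, was also lower. No other member passed the test. Of the 146 members, 2 were called by limma on log2(RPKM + 1), both lower (called means a log2 fold change beyond 1 in size and a Benjamini-Hochberg adjusted p below 0.01), beside 0.133% of all 11304 genes tested. At an adjusted p below 0.05 alone there were 5 members, beside 0.832% of all genes, and with voom, limma's weighted test on reads worked back from the RPKM values, *snoRNA:Psi18S-1389a* alone was called, beside 0.469% of all genes. At an unadjusted p below 0.05 (limma) there were 21 members higher and 17 lower, beside 14.8% of all genes in both directions together. Of these members, 19 and 15 averaged under 10 reads a library.

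*snoRNA:Psi18S-1389a* is named for a pseudouridine of 18S ribosomal RNA and lies in an intron of *domino* (*dom*), the gene of a SWI2/SNF2-type ATPase that exchanges histone variants (BDGP6, 2R, from 21333934 to 21334092, plus strand). It had 1 and 1 reads in double H3.3 K27R, 74 and 64 reads in H3.3B K27R, and 44 and 53 reads in wild type libraries, or 3.926 ± 0.238, 247 ± 5.8 and 165.6 ± 11.7 RPKM (SD, n = 2 each). With 1 read in each library, the SD in double H3.3 K27R reflects only the difference in library depth. The double H3.3 K27R libraries lie far from the other 4, and the other 4 do not overlap by genotype either. Against wild type the log2 fold change was -5.08 (SE 0.11, adjusted p = 3.37e-05, limma), and with voom it was -4.81 (adjusted p = 0.00483). Here and in the comparison of both mutants, the limma SE and p value rest on the spread between libraries. They leave out the counting error of so few reads. The ratio of RPM (reads per 1000000 counted reads) was 0.0238, with an exact 95% interval of 0.00285 to 0.0884 that covers counting error only.

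No other snoRNA gene in the *dom* introns passed the test, nor did the *dom* mRNA. Of the snoRNA genes listed in the data, the annotation placed 15 in *dom*, of which 10 were members. *snoRNA:Psi18S-1389b*, the sister copy named for the same site, starts 52 bases after the end of the a copy and had 2 and 3 reads in double H3.3 K27R, 11 and 4 reads in H3.3B K27R, and 7 and 7 reads in wild type libraries. Its values in both double H3.3 K27R libraries lay below those in all the others, with a log2 fold change against wild type of -1.23 that did not pass the test (SE 0.41, adjusted p = 0.252, limma). The sum of both copies was 1.79 and 2.6 RPM in double H3.3 K27R, 44.4 and 42.4 RPM in H3.3B K27R, and 32 and 28.3 in wild type libraries. The a copy holds 237 of the 271 reads behind these sums.

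The other 8 *dom* members had 14.3 and 26.7 RPM in double H3.3 K27R, 13.6 and 7.49 RPM in H3.3B K27R, and 10.1 and 9.91 in wild type libraries, so that the double H3.3 K27R values were the highest of all. Among them, *snoRNA:Psi18S-841a* had 6 and 18 reads in double H3.3 K27R, 9 and 3 reads in H3.3B K27R, and 5 and 7 reads in wild type libraries. The nearest upstream snoRNA gene among those listed, *snoRNA:Me28S-A2589c*, ends 2254 bases before *snoRNA:Psi18S-1389a* and was not a member. The *dom* mRNA had 13.8 and 12.8 RPKM in double H3.3 K27R, 15.5 and 15.6 RPKM in H3.3B K27R, and 13 and 14.2 RPKM in wild type libraries. Its log2 fold change against wild type was -0.03 (SE 0.15, 95% interval -0.39 to 0.34, limma).

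**Figure D2:**
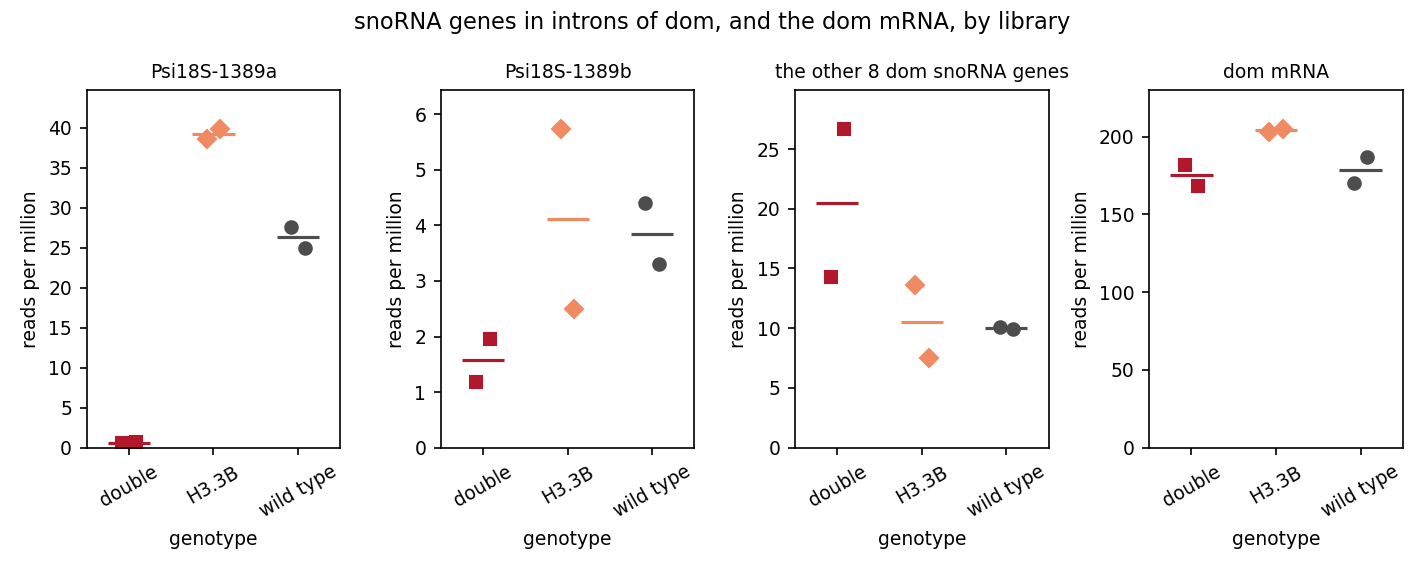
RPM (y, each panel with its own scale from 0) in the 2 libraries of each genotype (x) for the snoRNA genes in introns of *dom* and for the *dom* mRNA; points are libraries and lines are means. *snoRNA:Psi18S-1389a* has 0.597 and 0.651 RPM in double H3.3 K27R libraries, against 25 or more in the other 4, while the *dom* mRNA lies between 168 and 205 in all 6.

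The other called gene, *snoRNA:Tudor-SN-a*, lies in an intron of *Tudor-SN*, the gene of a conserved RNA-binding nuclease (BDGP6, 3L, from 259970 to 260280, minus strand), and at 311 bases it is longer than most members. It had 1 and 1 reads in double H3.3 K27R, 9 and 9 reads in H3.3B K27R, and 10 and 13 reads in wild type libraries. The values in double H3.3 K27R lie below all others, and those in H3.3B K27R lie just below wild type. The log2 fold change was -2.80 (SE 0.18, adjusted p = 0.00517, limma), and the ratio of RPM was 0.101, with a counting interval of 0.0115 to 0.407. As for *snoRNA:Psi18S-1389a*, the limma SE and p value leave out the counting error of so few reads. This call rested on 2 against 23 reads and did not hold with voom, at an adjusted p = 0.0749, nor when any 1 library was left out, at an adjusted p of 0.0352 to 0.116.

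Its neighbour in the same host gave other values. *snoRNA:Psi18S-996* had 92 and 111 reads in double H3.3 K27R, 115 and 74 reads in H3.3B K27R, and 78 and 98 reads in wild type libraries, with a log2 fold change of 0.40 against wild type (SE 0.18, adjusted p = 0.366, limma). The *Tudor-SN* mRNA had a log2 fold change of 0.15 (SE 0.17, adjusted p = 0.738, limma). In both hosts a single intronic snoRNA gene was called, and the mRNA did not pass the test.

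The 3 further members below an adjusted p of 0.05 were each at 0 reads in 1 or 2 genotypes and were named after their values were seen. Each therefore passed the limit of 1 RPKM only through the genotypes in which it had reads. The p values and folds make no allowance for that choice. *snoRNA:Psi28S-1192b*, in the ribosomal protein gene *RpS5a*, had 0 and 0 reads in double H3.3 K27R, 0 and 0 reads in H3.3B K27R, and 3 and 7 in wild type libraries. Its adjusted p for double H3.3 K27R against wild type males was 0.0122 with limma and 0.136 with voom. Counted over a genotype, with the 0 set to a floor of 3 reads, it was 2.88-fold lower in double H3.3 K27R males. The floor takes no account of counting error in the wild type reads. The counting interval of the ratio of RPM was 0 to 0.516. *snoRNA:bur-a* had 2 and 2 reads in double H3.3 K27R, 4 and 2 reads in H3.3B K27R, and 0 and 0 in wild type libraries. Against the same floor it was 1.54-fold higher in double H3.3 K27R (adjusted p = 0.0143 with limma and 0.262 with voom). With 0 wild type reads no ratio of RPM was formed for it. *snoRNA:Me28S-C437*, not matched to the annotation, had 0 and 0 reads in double H3.3 K27R, 2 and 1 reads in H3.3B K27R, and 1 and 3 in wild type libraries (adjusted p = 0.037 with limma and 0.375 with voom). Against the same floor it was 1.15-fold lower in double H3.3 K27R. Its counting interval was 0 to 1.75, which includes no change. None of the 3 held with voom at the adjusted p of 0.05.

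Among members with at least 10 reads a library, most differences between double H3.3 K27R and wild type males were small. Both mutant libraries lay above both wild type libraries for 7 of 19 members and below for 3, beside 23.7% above and 22.5% below among the 8613 genes with as many reads. Their median log2 fold change was 0.363, beside 0.006 over those genes. *snoRNA:Psi18S-1820* had a log2 fold change of 0.47 (SE 0.15, adjusted p = 0.238, limma), *snoRNA:Psi18S-1377d* of 0.55 (SE 0.23) and *snoRNA:Or-aca5* of 0.47 (SE 0.26). *snoRNA:Psi28S-2622* had a log2 fold change of 0.51 (SE 0.17, adjusted p = 0.254) and *snoRNA:Or-CD2*, a C/D orphan in *Uhg4*, of 0.55 (SE 0.28). Besides *snoRNA:Psi18S-1389a*, the libraries lay apart and lower for *snoRNA:Psi28S-3305c* in the RNA-binding protein gene *Hrb98DE*, at -0.59 (SE 0.39), and for *snoRNA:Psi18S-531* in *RpL22*, at -0.53 (SE 0.22). Several of these values moved with 1 library. Without double H3.3 K27R replicate 2 that of *snoRNA:Or-aca5* was 0.03, that of *snoRNA:Psi18S-1377d* 0.19, that of *snoRNA:Psi28S-2622* 0.26 and that of *snoRNA:Or-CD2* 0.34, and without replicate 1 they were 0.90, 0.91, 0.76 and 0.76. Without wild type replicate 2 that of *snoRNA:Or-CD2* was 0.25 and that of *snoRNA:Psi18S-531* -0.27, and without wild type replicate 1 that of *snoRNA:Psi28S-3305c* was -0.32. None of these genes passed the test, and their adjusted p values lay above 0.2 in the same fit.

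The higher values came in large part from 1 library. Double H3.3 K27R replicate 2 was the highest of the 6 libraries for 9 of the 19 members with at least 10 reads (47.4%), beside 17.3% of the 8613 genes. Summed over the Psi members there were 702.7 and 919.3 RPM in double H3.3 K27R, 714.6 and 604 RPM in H3.3B K27R, and 634 and 633.5 in wild type libraries. Over all 146 members the ratio of double H3.3 K27R to wild type RPM was 1.26 with both libraries and 1.09 without replicate 2. The Me sums were 114.1 and 110.7 RPM in double H3.3 K27R, 88.22 and 102.9 RPM in H3.3B K27R, and 106.2 and 96.31 in wild type libraries, most of them from *snoRNA:MeU5-C46*. For the other names the sums were 153 and 238.9 RPM in double H3.3 K27R, 166 and 152.9 RPM in H3.3B K27R, and 164.6 and 143 in wild type libraries. A list of 37 other short non-coding RNAs had sums of 396 and 399 RPM in double H3.3 K27R, 406 and 436 RPM in H3.3B K27R, and 437 and 446 RPM in wild type libraries, most of them from *snRNA:7SK*. Without that gene the sums were 45.4 and 56 RPM in double H3.3 K27R, 62.6 and 54.9 RPM in H3.3B K27R, and 59.7 and 74.1 RPM in wild type libraries.

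**Figure D3:**
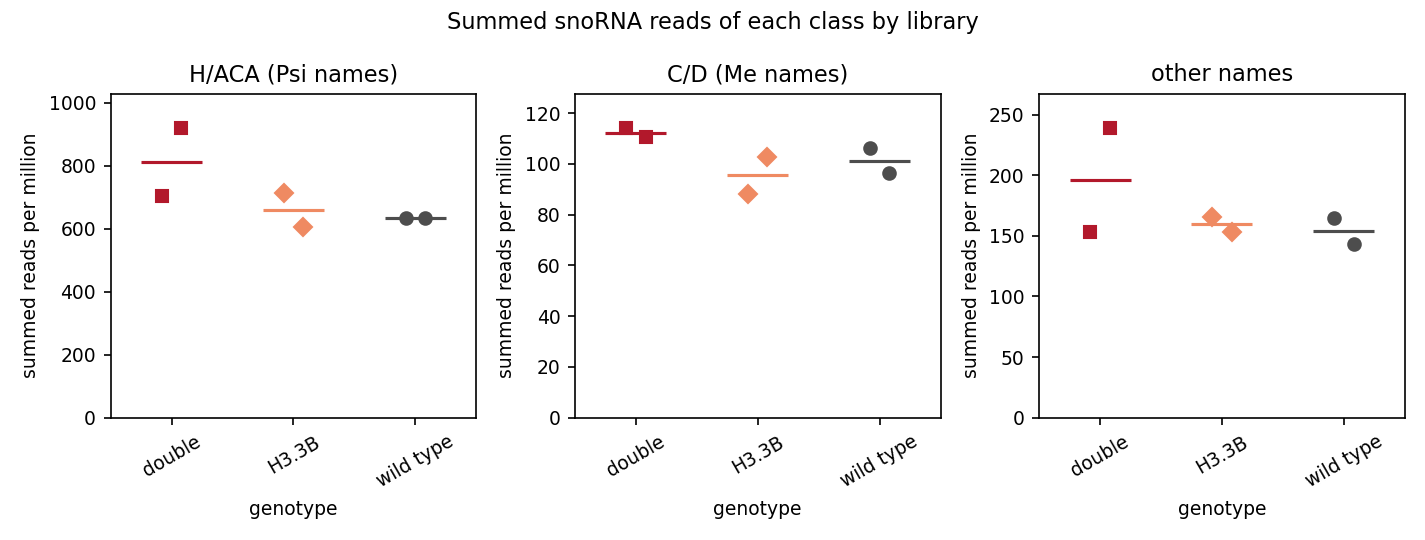
Summed RPM (y, each panel with its own scale from 0) of the 85 Psi, 32 Me and 29 other members in the 2 libraries of each genotype (x); points are libraries and lines are means. One double H3.3 K27R library stands above the rest at 919.3 for Psi and 238.9 for other names, while the second lies close to the libraries of the other genotypes.

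A large fold change among these genes mostly went with few reads. For double H3.3 K27R against wild type males 58.2% of the 146 members lay beyond a log2 fold change of 1 in either direction, beside 6.89% of all genes tested. Of the 19 members with at least 10 reads it was 5.26%, that is *snoRNA:Psi18S-1389a* alone, beside 3.13% of the 8613 genes with as many reads. The median log2 fold change was 0.181 for Psi members, 0 for Me members and 0.443 for other names, beside 0 over all genes tested.

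**Figure D4:**
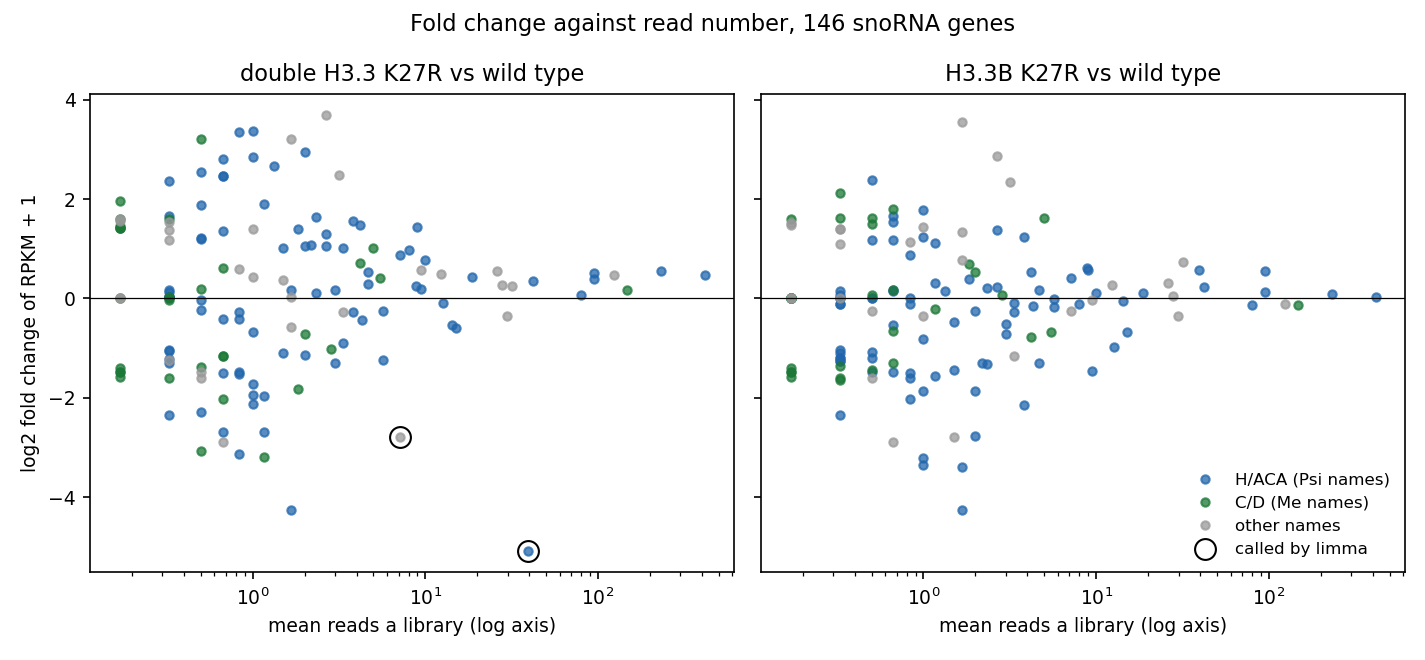
Log2 fold change of RPKM + 1 (y) against the mean reads a library (x, log axis) for the 146 members, in double H3.3 K27R against wild type males (left) and H3.3B K27R against wild type males (right). Points spread widely to the left, where genes have few reads, and close in on 0 to the right; black rings mark *snoRNA:Psi18S-1389a* at -5.08 and *snoRNA:Tudor-SN-a* at -2.80, the 2 genes called by limma.

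In H3.3B K27R males, which keep unedited H3.3A, no snoRNA gene passed the test against wild type. limma called 0 of 146 members beside 0.00885% of all genes, and voom called 0 beside 0.0619%. At an unadjusted p below 0.05 there were 9 members higher and 12 lower, beside 4.22% and 8.14% of all genes, and at an adjusted p below 0.05 there were 3 in the limma fit, beside 0.0619% of all genes, and 0 with voom. Those 3 were *snoRNA:Psi28S-1192b* and *snoRNA:bur-a*, with the reads given above, and *snoRNA:Psi28S-1175b* in *RpS16*, with 2 and 3 reads in double H3.3 K27R, 0 and 0 reads in H3.3B K27R, and 2 and 3 in wild type libraries. Their adjusted p was 0.0318 each (limma) in H3.3B K27R against wild type males. *snoRNA:Psi28S-1175b* too passed the limit of 1 RPKM only through the genotypes in which it had reads. Against a floor of 3 reads, *snoRNA:Psi28S-1192b* was 3.16-fold lower, *snoRNA:bur-a* 2.11-fold higher and *snoRNA:Psi28S-1175b* 1.58-fold lower, without account of counting error. The counting interval of the ratio of RPM was 0 to 0.47 for *snoRNA:Psi28S-1192b*. For *snoRNA:Psi28S-1175b* it was 0 to 1.15, which includes no change, and for *snoRNA:bur-a* no ratio was formed.

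*snoRNA:Psi18S-1389a* did not go the same way in the single mutant. Its level was 242.9 and 251.1 RPKM in H3.3B K27R, against 173.9 and 157.4 RPKM in wild type libraries, so that both H3.3B K27R values were the higher ones. The log2 fold change was 0.58 (SE 0.11), which did not pass after adjustment (adjusted p = 0.206, limma). *snoRNA:Tudor-SN-a* had a log2 fold change of -0.26 (SE 0.18, 95% interval -0.70 to 0.18, limma). For the *dom* mRNA it was 0.18 (SE 0.15).

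Among members with at least 10 reads, the H3.3B K27R libraries lay above both wild type libraries for 3 and below for 3 of 19, beside 21.4% above and 25.9% below among the 8613 genes. The median log2 fold change of these members was 0.093, beside -0.010 over those genes. The 3 higher ones were *snoRNA:Psi18S-1389a*, *snoRNA:Psi28S-2622* with 123 and 95 reads in H3.3B K27R, against 64 and 92 in wild type libraries, and *snoRNA:CG32479-b* in the ubiquitin peptidase gene *Usp10*, with 48 and 36 reads in H3.3B K27R, against 35 and 19 in wild type libraries. Their log2 fold changes on RPKM were 0.58, 0.56 (SE 0.17) and 0.74 (SE 0.38). The last value was 0.11 without wild type replicate 2 and 1.38 without wild type replicate 1. The 3 lower ones were *snoRNA:Psi28S-1175c* in *RpS16* at -0.97 (SE 0.21, adjusted p = 0.227, limma), *snoRNA:SC35-a* in the splicing factor gene *SC35* at -0.36 (SE 0.28) and *snoRNA:Or-aca5* at -0.12 (SE 0.26). The *RpS16* mRNA had a log2 fold change of 0.13 (SE 0.12). The medians were -0.108 for Psi members, 0 for Me members and 0.283 for other names, beside -0.017 over all genes tested.

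The direct comparison of both mutants called the same genes as that of double H3.3 K27R with wild type males. limma called 2 of 146 members, both lower, beside 0.0619% of all genes, and 3 at an adjusted p below 0.05, beside 0.31%. voom called 1 beside 0.38%. *snoRNA:Psi18S-1389a* had a log2 fold change of -5.65 (SE 0.11, adjusted p = 1.69e-05, limma) and -5.44 with voom (adjusted p = 0.00312), and a ratio of RPM of 0.0159 with a counting interval of 0.0019 to 0.0585. *snoRNA:Tudor-SN-a* had -2.54 (SE 0.18, adjusted p = 0.00781, limma; voom 0.128). The third at the looser threshold was *snoRNA:Psi28S-1175b*, on 5 against 0 reads (adjusted p = 0.0168 with limma and 0.276 with voom). Against a floor of 3 reads it was 1.83-fold higher in double H3.3 K27R males, without account of counting error. This comparison shares the double H3.3 K27R libraries with that against wild type.

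The machinery that makes and uses snoRNAs was measured in the same fit. None of 4 H/ACA core protein genes, 4 C/D core protein genes, 4 genes of the U3 particle, 6 assembly factors and 4 genes of the nucleolus and of RNA trimming passed an adjusted p of 0.05 in any of the 3 comparisons, and voom called none. Among them *Fib*, the methyltransferase of the C/D particle and itself the host of a member, had 6.76 and 6.39 RPKM in double H3.3 K27R, 11.4 and 16.5 RPKM in H3.3B K27R, and 12.3 and 12.1 RPKM in wild type libraries. Its log2 fold change was -0.80 in double H3.3 K27R against wild type males (SE 0.21, adjusted p = 0.172, limma). *Nop60B*, the H/ACA enzyme, was at 0.08 (SE 0.34) in double H3.3 K27R and 0.39 (SE 0.34) in H3.3B K27R males against wild type.

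The host genes were tested in the same way. None of the 54 passed an adjusted p of 0.05 in any comparison, and at an unadjusted p below 0.05 against wild type there were 7 in double H3.3 K27R males, beside 14.8% of all genes, and 7 in H3.3B K27R males, beside 12.4%. Over the hosts the log2 fold change had a median of 0.117 in double H3.3 K27R and 0.114 in H3.3B K27R males against wild type. Of 7 non-coding Uhg hosts, 6 were tested, with log2 fold changes against wild type between -1.77 and 1.79 in double H3.3 K27R and between -0.74 and 1.29 in H3.3B K27R males. *Uhg8* had 5 and 5 reads in double H3.3 K27R, 2 and 6 reads in H3.3B K27R, and 1 and 1 in wild type libraries (log2 fold change in double H3.3 K27R against wild type 1.79, SE 0.48, adjusted p = 0.177, limma). *Uhg4*, host of 4 members, had between 2 and 6 reads a library.

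Markers of the labelled tissue and sex were present, with a mean over the 6 libraries of 177 RPKM for the male-specific RNA *roX1*, 4550 RPKM for the flight muscle actin *Act88F*, 905 RPKM for the photoreceptor opsin *ninaE* and the female yolk protein genes *Yp1*, *Yp2* and *Yp3* did not exceed 2.51 RPKM in any library. In whole animals fewer cells of a type and less RNA per cell cannot be told apart.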

How the data were processed

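RNA of whole males was cleaned on silica columns, which keep short RNA poorly, and total RNA libraries were made with a Nugen Ovation kit. The authors ran STAR against dm3 with altered histone genes, counted reads with Subread and deposited RPKM values per gene and library, scaled to gene length and counted reads. The submitters' processing notes name STAR 2.5.2b, SAMtools 1.3.1, Subread 1.28.1 and DESeq2 1.18.1. A deposited score, the authors' mean of normalised counts per gene, was used only to set the worth of 1 read. The fold changes, errors, statistics and p values of the authors' own comparisons were not used. Use of strand and of reads with several places in counting is not given in the sources used here.

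Whole reads were worked back from the RPKM values. All 73342 values above 0 were within 0.01 of a whole read (100%, largest distance 0.00305). limma 3.58.1 in R 4.3.3 (lmFit, eBayes with trend) was fitted to log2(RPKM + 1) of 11304 genes (mean RPKM 1 or more), with 3 genotypes in one fit and Benjamini-Hochberg adjustment over all of them. It had 3 residual and 3.43 prior degrees of freedom. The + 1 understates fold changes of low genes. Ratios of RPM carry exact 95% intervals for counting error only. Beyond replicate number and barcode, the labels only mark H3.3B K27R replicate 1 as techMerge, without saying what was merged. They do not say how the libraries of a genotype otherwise differ, so p values measure the spread between libraries. An exact permutation test of 2 against 2 libraries cannot go below 0.333. The procedure was tested on simulated data. Recovery of planted changes in snoRNA genes with few reads was not among its criteria to pass.

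Symbols, hosts and positions came from the Ensembl BDGP6 annotation and were not converted to dm3, and 15 members were not matched. The members and lists were chosen with earlier results of these data known. Members are named if called by limma or voom, if among the 5 with the largest increase or decrease in a mutant with at least 10 reads a library and libraries that do not overlap, if among the 5 of a class with the highest RPKM, or if a sister copy of a called gene. Alternatives were other pseudocounts, filters, scalings and fits, voom on the reads, and each library left out.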

Additional observations from a re-analysis of the deposited data

Results flagged for a closer look

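Both called genes differed between the 2 mutants when the mutants were set against each other directly, which is why they are given here. For *snoRNA:Psi18S-1389a* the log2 difference, double H3.3 K27R minus H3.3B K27R, was -5.65 (adjusted p = 1.69e-05, limma), on 1 and 1 reads in double H3.3 K27R, against 74 and 64 reads in H3.3B K27R libraries. For *snoRNA:Tudor-SN-a* it was -2.54 (adjusted p = 0.00781, limma), on 1 and 1 reads in double H3.3 K27R, against 9 and 9 reads in H3.3B K27R libraries, with an adjusted p of 0.128 with voom.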

How the results depend on the processing

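The call of *snoRNA:Psi18S-1389a* held under all 17 alternatives in double H3.3 K27R against wild type males (adjusted p 2.87e-05 to 0.00605) and against H3.3B K27R males (1.43e-05 to 0.00312). That of *snoRNA:Tudor-SN-a* was lost under 11 alternatives against wild type and 13 against H3.3B K27R males, at an adjusted p of up to 0.116 and 0.137, while its log2 fold change with a library left out was -2.84 to -2.76 and -2.66 to -2.42. The count of called members against wild type was accordingly 1 with only 2 genotypes fitted, both voom fits and no trend, 5 at an adjusted p below 0.05, and 1 to 1 with a library left out. Against H3.3B K27R it was 1 with a pseudocount of 10 RPKM, no filter, 2 genotypes, both voom fits and no trend, and 1 to 1 with a library left out. In H3.3B K27R against wild type males it was 3 at an adjusted p below 0.05.

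Replicate numbers did not pair the libraries (correlations of deviations 0.00931, -0.209 and 0.0165), and with a replicate block 1 member was called in double H3.3 K27R against wild type and 1 against H3.3B K27R males.

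The Psi median in double H3.3 K27R against wild type males was 0.069 to 0.570 with a library left out. The Me median there was -0.268 at a mean RPKM of at least 5, 0.406 with voom on genes with at least 5 reads and -0.311 (without double H3.3 K27R replicate 2) to 0.000 with a library left out. In H3.3B K27R against wild type males it was -0.033 and -0.072 with those 2 limits, 0.053 with median centring and 0.112 with voom. *snoRNA:Psi18S-1389b* in H3.3B K27R against wild type males, at -0.01, turned to 0.02 (pseudocount 10), 0.04 (quantile), 0.05 (centring), 0.15 and 0.14 (voom), and -0.58 to 0.57 with a library left out, 0.19 among them. The cause of these moves was not tested. The 81 members with at most 3 reads in any library limit what a test can show, and the size of difference detectable at that depth was not measured.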
